A study of Mus musculus with 18 samples.

Results

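Immature XCR1+ dendritic cells (DC) sorted from the thymus of germ-free mice were set against the same cells from control mice, across all genes on no X or Y chromosome. The control group (CTRL) held wild-type B6 mice under specific-pathogen-free (SPF) housing, and the germ-free group (GF) held wild-type B6 mice under Germ-Free housing. All mice were untreated. The cells of both groups were gated as CD11b-, CD11c+, MHCII+, CD172a-, XCR1+, CD8a+, CD117+ and CCR7-. Each group held 3 arrays of the 18 in the series. The mature counterpart of these cells (CCR7+, CD117-) was measured in the same 2 housings with 3 arrays each. Both stages were also measured in Ifnar1-KO mice under SPF housing. The Ifnar1-KO arrays enter here through the shared estimate of the spread, as levels of a few genes and in correlations of arrays across stages. The members were 19187 of the 19938 genes on the array that a single symbol names, after the 751 genes on X or Y were left out. Age and sex are not in the labels. Nor do the labels state that each array was a separate animal or pool, and the p-values therefore speak only of array-to-array spread, which may be technical.

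XCR1+ DC are the DC lineage that takes up dying cells and passes their antigens to CD8 T cells, and in the thymus they also acquire self antigens from epithelial cells and take part in the deletion of self-reactive T cells and the selection of regulatory T cells. As they mature without infection they leave the cell cycle, lose CD117 and gain CCR7, the receptor that leads DC towards the T cell zones or the medulla, together with costimulatory ligands, chemokines and the IL-12 subunit encoded by Il12b. Resident microbes are known to act on immune cells far from the gut, through ligands of Toll-like and other innate receptors, through a low steady level of type I interferon and through metabolites such as short-chain fatty acids, so that germ-free animals are used to ask which features of a cell need the microflora. The question here was whether the immature stage already differs without it.

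Levels are log2 values after robust multi-array averaging (RMA), so that a difference of 1 is a 2-fold difference. Differences are GF minus CTRL and are given ± the standard error (SE) from limma, with n = 3 arrays in each group. A gene was called where its Benjamini-Hochberg adjusted p over all 19938 genes was under 0.05. Values of a group are listed in the order of arrays 1, 2 and 3, the numbers of the array codes. In pools of sorted cells, fewer cells of a type and less RNA per cell cannot be told apart.

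No member differed between germ-free and control immature cells past the threshold. Limma called 3 of 19938 genes (0.0150%), all on X or Y, and 0 of 19187 members (0%). The smallest adjusted p of a member was 0.0537, that of Tmem231. That adjustment ranked the sex-linked genes as well, and over genes on no X or Y chromosome alone the smallest was 0.207. At an unadjusted p under 0.05 there were 1211 members (6.31%), 589 of them higher in GF (3.07%) and 622 lower (3.24%). The 3 GF arrays lay above the 3 CTRL arrays in 1835 members (9.56%) and below them in 998 (5.20%). The median difference over members was 0.03, and -0.02 over those at or above the median level.

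The precision of this comparison can be read from the intervals. The median half-width of the 95% interval was 0.27, and 17791 members (92.7%) had an interval that lay wholly within a 2-fold difference in either direction. That share covers members at every level and varied between the gene lists described below. It held for 16 of 30 DC maturation genes, 16 of 24 mitosis genes and 8 of 23 thymocyte markers, but for all 14 genes of the MHC class II pathway. For 12442 members (64.8%) the interval lay within 0.5 on the log2 scale. No member had a difference of 1 or more towards higher levels in GF, while 51 members had a difference of -1 or below. Spread was larger among GF than among CTRL arrays: the SD was higher in GF in 67.0% of members, with medians of 0.13 and 0.09. A permutation of 3 against 3 arrays cannot give an exact p below 0.1, so no single gene could be tested that way.

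The called genes were sex-linked. Xist, the RNA that silences an X chromosome in female cells, read 8.39, 9.63 and 9.61 on the CTRL arrays and 4.04, 3.99 and 4.13 on the GF arrays, a difference of -5.16 ± 0.61. Eif2s3y, a translation initiation factor gene on Y, read 3.47, 3.40 and 3.36 in CTRL and 8.01, 7.71 and 8.26 in GF, a difference of 4.58 ± 0.38. Kdm5d, a histone demethylase gene on Y, differed by 2.22 ± 0.19. The CTRL and GF arrays did not overlap in any of the 3 genes, so the 2 groups differed in sex as well as in housing, and the effects of sex and housing cannot be told apart in any difference given here. The array codes of all 3 immature GF arrays also end in a letter r, whose meaning is not given, against 1 of the 3 immature CTRL arrays. What that letter may mark is thus largely confounded with housing.

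**Figure D1:**
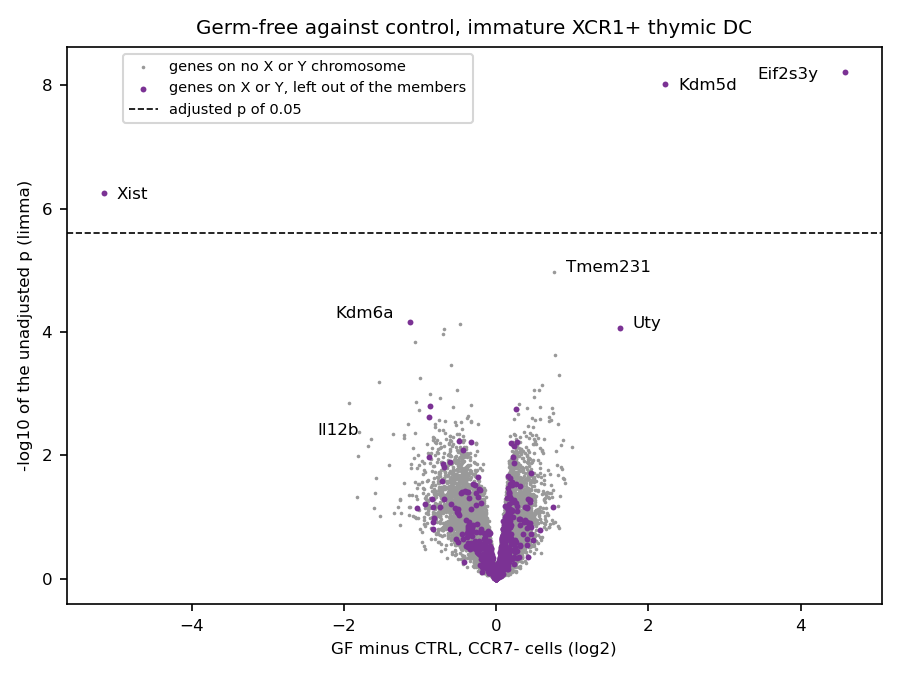
The horizontal axis gives GF minus CTRL in CCR7- cells on the log2 scale and the vertical axis the negative log10 of the unadjusted limma p, with 1 point per gene (grey for members, purple for genes on X or Y) and a dashed line at an adjusted p of 0.05. Xist, Eif2s3y and Kdm5d are the 3 points above the line, and Tmem231 is the member nearest to it.

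The sorted cells carried the genes that define their gate and lineage at both housings. Xcr1, the chemokine receptor used in the sort, read 11.56, 11.52 and 11.44 in CTRL and 11.42, 11.46 and 11.28 in GF. The class II genes H2-Aa and H2-Ab1 differed by 0.01 ± 0.07 and 0.04 ± 0.09, and Kit, which encodes CD117, by -0.15 ± 0.34. Itgam and Sirpa, which encode the excluded markers CD11b and CD172a, differed by 0.05 ± 0.08 and -0.13 ± 0.28. Cd8a was the sort gene besides Ccr7 with the largest difference: it read 11.15, 10.95 and 11.11 in CTRL and 10.71, 10.35 and 10.63 in GF, a difference of -0.51 ± 0.18 with a limma adjusted p of 0.766. Its GF arrays all lay below the CTRL arrays.

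Of 27 genes of XCR1+ DC identity, 0 were called, 2 were lower at an unadjusted p under 0.05, and 8 had all GF arrays below the CTRL arrays (29.6%, against 5.20% of members). Their median difference was -0.11, against 0.03 over all members and -0.02 over members at or above the median level. The list's mean level per array ran from 9.34 to 9.58, while the 5.20% covers members at every level. Ly75, which encodes the endocytic receptor DEC-205, read 8.74, 8.56 and 8.75 in CTRL and 8.47, 7.83 and 8.03 in GF (-0.57 ± 0.24). Flt3, the receptor for the growth factor on which DC depend, differed by -0.36 ± 0.19, and Wdfy4, which is needed for cross-presentation, by -0.42 ± 0.40. The lineage transcription factors Irf8 (0.11 ± 0.14), Batf3 (-0.03 ± 0.20) and Id2 (0.02 ± 0.06) each had an interval within a 2-fold difference.

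Markers of other thymic cells included 0 called genes. Of the 23 thymocyte markers 0 reached an unadjusted p under 0.05, and their median difference was 0.05. Their mean level per array ran from 4.58 to 4.98 in CTRL and from 4.66 to 4.85 in GF. Their differences ran from -0.79 to 0.26. Only 8 of the 23 had an interval within a 2-fold difference, so the intervals of the others reached a 2-fold difference or more. The lists for B cells and plasma cells, plasmacytoid DC, SIRPa+ DC, macrophages, granulocytes, NK and innate lymphoid cells, thymic epithelium, stroma and endothelium, and red cells had medians from 0.01 to 0.11. In the first 3 of these lists, and among the granulocyte, epithelial, stromal and red cell markers, 0 genes reached an unadjusted p under 0.05. The macrophage list held 1 higher gene at that threshold, the complement gene C1qa (0.30 ± 0.14), and the NK list held Klre1, an NK receptor gene (0.33 ± 0.11). All GF arrays lay above all CTRL arrays in 4 of the 12 NK and innate lymphoid markers (33.3%, against 9.56% of members). The median of that list stood at 0.06, 0.11 and 0.18 above the CTRL mean on the 3 GF arrays and at most 0.03 above it on a CTRL array. Its mean level per array ran from 3.74 to 3.99, below the array medians of 4.37 to 4.46 over all probesets. The macrophage, thymic epithelium and red cell lists were also higher on every GF array than on any CTRL array. For thymic epithelium the margin was 0.0241 against 0.0239, and the red cell list held only 2 members. Over all members, GF arrays 2 and 3 both lay above all CTRL arrays in 5063 of 19187. The part of such cells in the differences given here was not tested.

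The 10 members of smallest p in each direction, none of which passed the threshold, ranged from -1.54 to 0.82 and covered genes of varied function. Several, among them Spdye4b, Airn and Klra5, read near or below the array medians of 4.37 to 4.46 over all probesets. Others, such as Rps27l and Uqcc2, read far above those medians. Tmem231, a membrane protein of the primary cilium, read 4.72, 4.70 and 4.63 in CTRL and 5.30, 5.50 and 5.50 in GF. The difference was 0.75 ± 0.11, with a 95% interval from 0.508 to 0.997, and the GF arrays lay clear of the CTRL arrays. The CTRL levels of Tmem231 lay close to the array medians. Tmem231 was called when limma's prior was given an intensity trend (adjusted p 0.0266), with array weights (0.00216), when only the 12 wild-type arrays were fitted (0.0348) and when both Ifnar1-KO replicate 2 arrays were left out (0.0068). It was not called under several other settings. The smallest limma adjusted p of any member was 0.250 with only the groups compared and 0.122 with quantile normalization. It was 0.278 when only genes at or above the median level were fitted. It was 0.372 without CTRL array 3 and 0.386 with the trailing letter r as covariate. Over all settings run the difference of Tmem231 lay between 0.62 and 0.82, and it was lowest without GF arrays 2 and 3.

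The other higher genes of this set were Bex6 (0.77 ± 0.16), Zbtb11os1 (0.82 ± 0.18), Svbp (0.73 ± 0.19), Ntpcr (0.60 ± 0.14), Treml2 (0.57 ± 0.14), Uqcc2 (0.57 ± 0.15), Rps27l (0.50 ± 0.12), Tusc1 (0.49 ± 0.12) and Spdye4b (0.30 ± 0.08). Treml2, a receptor of the TREM family found on myeloid and lymphoid cells, was among the most even of them, with 5.61, 5.52 and 5.29 in CTRL and a GF mean of 6.04 ± 0.036 (SD, n = 3). Svbp, a chaperone of the enzymes that remove tyrosine from tubulin, read 8.10, 7.97 and 8.04 in CTRL and 8.46, 8.87 and 8.96 in GF. Rps27l, a ribosomal protein gene that p53 activates, read 10.37, 10.58 and 10.37 in CTRL and 10.78, 11.20 and 10.83 in GF.

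The lower genes of the set were Airn (-0.48 ± 0.09), Klra5 (-0.68 ± 0.13), Cacna1e (-0.70 ± 0.13), Trabd2b (-1.07 ± 0.21), Pidd1 (-0.59 ± 0.13), Zwilch (-1.004 ± 0.23), Taf1a (-1.54 ± 0.36), Rab3ip (-0.51 ± 0.12), Anxa3 (-0.87 ± 0.21) and Mcts2 (-0.73 ± 0.18). Klra5, a Ly49 receptor gene, read 4.72, 4.56 and 4.40 in CTRL and 4.01, 3.81 and 3.82 in GF. Klra5 belongs to a family of closely similar genes, so its probes may also bind relatives. Cacna1e, a calcium channel subunit, read 4.93, 4.90 and 5.05 in CTRL and 4.03, 4.43 and 4.31 in GF. Klra5 and Cacna1e were called with array weights (adjusted p 0.0305 for both) and without both Ifnar1-KO replicate 2 arrays (0.0439 and 0.0333).

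**Figure D2:**
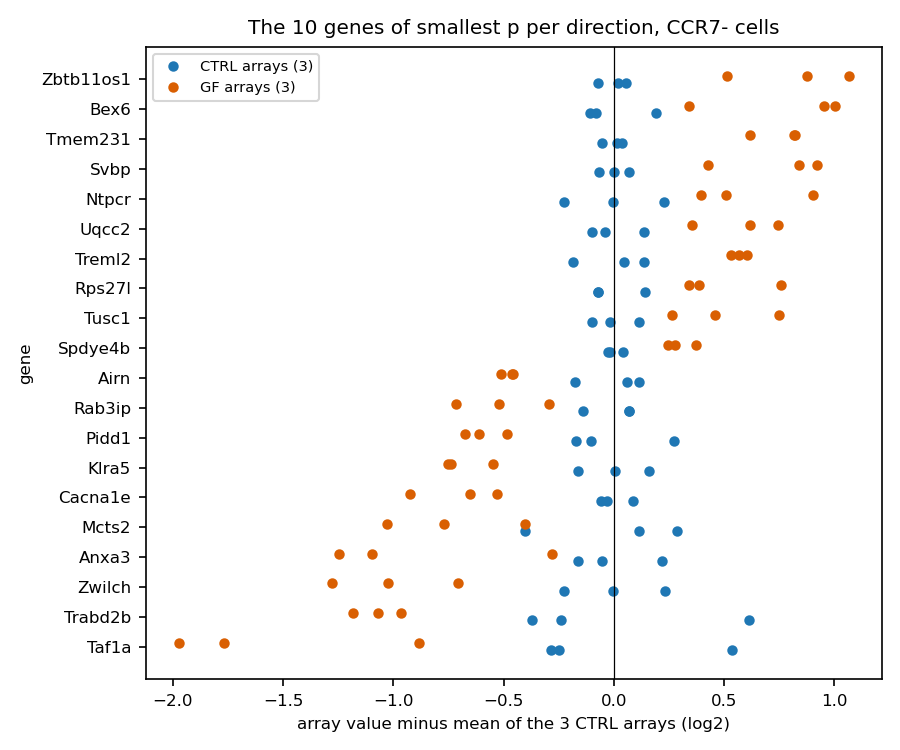
Each row is 1 of the 20 members of smallest p, and the horizontal axis gives every array's log2 value minus the mean of the 3 CTRL arrays (blue for CTRL, orange for GF). The genes were chosen by this comparison's p, and their GF points lie on one side of the CTRL points, from Zbtb11os1 (0.82 on average) to Taf1a (-1.54).

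The 3 GF arrays were not alike, and this bears on every gene group described from here on. Over the 1000 most variable members, the first principal component of the 6 arrays carried 65.4% of the variance and placed GF arrays 2 and 3 at 19.47 and 18.37, against -9.19 for GF array 1 and -7.65 to -11.13 for the CTRL arrays. GF array 1 correlated with the CTRL arrays at 0.994 to 0.995 over all members, and GF arrays 2 and 3 at 0.983 to 0.985. Of the 51 members with a difference of -1 or below, 48 had GF arrays 2 and 3 below all CTRL arrays (94.1%, against 15.8% of members, a share that the choice of low genes raises).

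With GF array 1 left out, 36 members (0.188%) were called, 32 lower (0.167%) and 4 higher in GF. With GF arrays 2 and 3 both left out, 0 members were called and 256 had an unadjusted p under 0.05. The same 2 arrays also read lower in genes that span more of the genome. Among 9591 members at or above the median level, split into 4 equal groups by gene span, GF array 2 lay 0.10 above the CTRL mean in the shortest-span group and 0.24 below it in the longest-span group (medians). For GF array 3 these values were 0.11 above and 0.28 below, and for GF array 1 they were 0.02 above and 0.02 below. Of the members with a difference of -1 or below, 22 of the 45 at or above the median level (48.9%) fell in the longest-span group. The part that these 2 arrays' departure plays in the gene groups was not tested.

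Genes of DC maturation read lower in 2 of the 3 germ-free arrays. The list held 30 members, from CCR7 and its companions to costimulatory ligands and chemokines. None was called, 11 were lower at an unadjusted p under 0.05 and 0 higher. A difference below 0 was found in 24, against 39.6% of members at every level. The median difference was -0.39, against -0.02 over members at or above the median level. By array, the median of the list stood at 0.10 above the CTRL mean in GF array 1, and 0.73 and 0.55 below it in GF arrays 2 and 3. In 21 of the 30 genes GF arrays 2 and 3 both lay below all CTRL arrays, against 3025 of 19187 members (15.8%). In 19 of those 21 GF array 1 did not lie below them, against 2027 of the 3025. By gene span, 7 of its 30 members (23.3%) lay in the longest-span group, which holds 25.0% of the 9591 members split by span. Gene span is only 1 measure of how GF arrays 2 and 3 depart, and the part of that departure in this list was not tested.

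Il12b, which encodes the p40 subunit of IL-12 and IL-23, read 8.97, 8.99 and 9.63 in CTRL and 9.24, 6.63 and 6.80 in GF. GF array 1 lay among the CTRL arrays and the other two far below them. The difference was -1.64 ± 0.50, with a limma adjusted p of 0.766 and a 95% interval from -2.72 to -0.57. In mature cells Il12b read 11.54 to 12.04 in CTRL and 11.42 to 11.60 in GF. In the immature cells of Ifnar1-KO mice it read 8.04, 7.55 and 8.01, below all 3 CTRL arrays. Those arrays differ from CTRL in genotype and also in sex-linked genes. Their means were 6.05 for Eif2s3y and 7.85 for Xist, against 3.41 and 9.21 in immature CTRL. What sets their levels was not tested.

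Ccr7 itself read 9.03, 8.98 and 8.95 in CTRL and 9.09, 7.25 and 7.77 in GF, a difference of -0.95 ± 0.35 (limma adjusted p 0.766). In mature cells it read 11.88 to 12.04 in CTRL and 11.93 to 12.09 in GF. The Ifnar1-KO immature cells read 7.85, 8.54 and 7.29. The 2 genes that mark the mature stage were thus at their lowest among wild-type arrays in GF arrays 2 and 3, and no array of immature cells reached the range of the mature cells.

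Several other genes of the list had the same pattern. Socs2, an inhibitor of cytokine signalling, read 6.09, 5.61 and 6.41 in CTRL and 6.10, 4.07 and 4.70 in GF (-1.08 ± 0.37). Fscn1, which encodes the actin-bundling protein fascin of mature DC, read 8.48, 8.14 and 8.65 in CTRL and 8.52, 6.93 and 6.69 in GF (-1.04 ± 0.45). Cd274, which encodes the inhibitory ligand PD-L1, read 6.40, 6.42 and 6.93 in CTRL and 6.61, 4.87 and 5.24 in GF (-1.01 ± 0.36). In each of these genes GF array 1 lay within the CTRL range. Ccl22, a chemokine for CCR4+ T cells, read 10.75, 8.38 and 9.01 in GF against 10.10 to 10.38 in CTRL, so that GF array 1 was above and the other two below (-0.89 ± 0.45). Other maturation genes did not share it: Ccl17, another CCR4 ligand, read 9.69, 9.04 and 9.31 in CTRL and 10.35, 9.06 and 8.94 in GF (0.11 ± 0.37), and Cd83, which stabilises class II on the surface, differed by -0.08 ± 0.30.

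Anxa3 and Il15ra were lower on all GF arrays. Anxa3, which encodes the membrane-binding protein annexin A3, read 6.45, 6.56 and 6.83 in CTRL and 6.33, 5.51 and 5.36 in GF (-0.87 ± 0.21). Il15ra, which presents IL-15 to neighbouring cells, read 6.58, 6.62 and 6.71 in CTRL and 6.35, 5.53 and 5.94 in GF (-0.70 ± 0.20). These 2 were the only genes of the list whose groups did not overlap. The cytokine gene Il15 differed by -0.67 ± 0.20, with GF array 1 (7.32) within the CTRL range of 7.20 to 7.99.

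**Figure D3:**
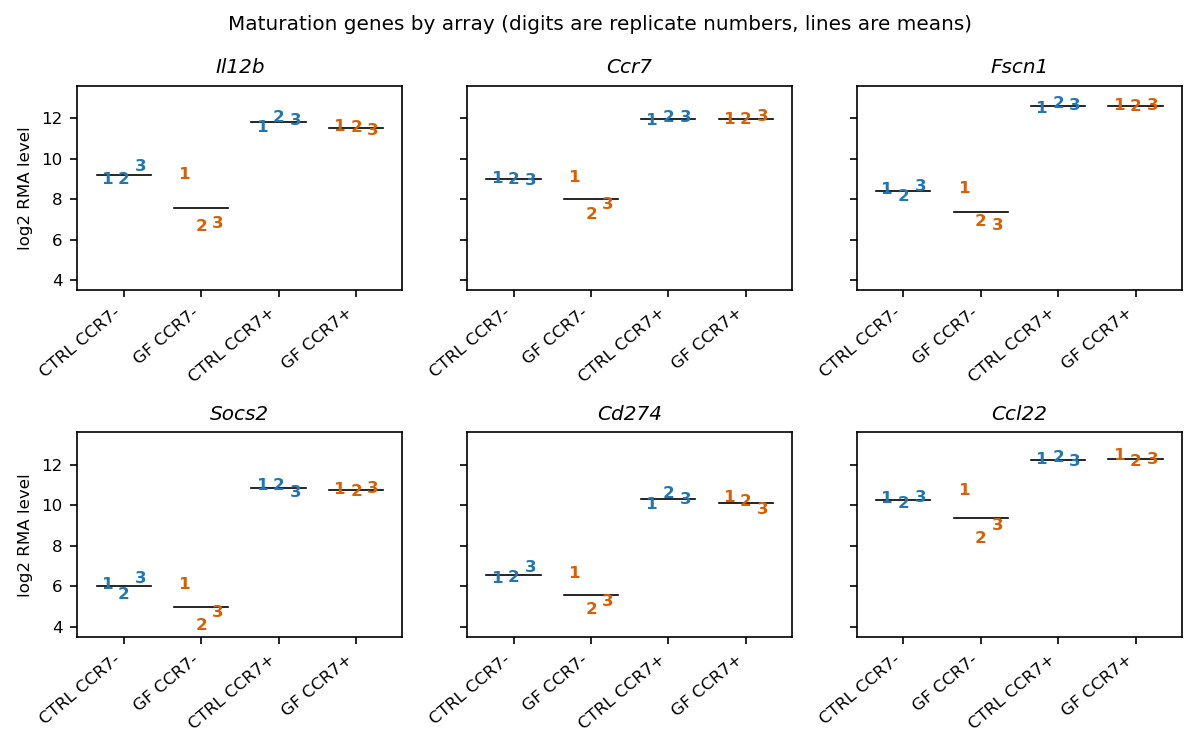
Log2 RMA levels of Il12b, Ccr7, Fscn1, Socs2, Cd274 and Ccl22 in the 4 wild-type groups, with each array drawn as its replicate number (blue for CTRL, orange for GF) and group means as lines. In CCR7- cells GF array 1 lies with or above the CTRL arrays and GF arrays 2 and 3 below them (for Il12b 6.63 and 6.80 against 8.97 to 9.63), while the CCR7+ groups lie together at a higher level.

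GF array 1 lay with the CTRL arrays in these same values, so leaving it out lowers p for genes low on GF arrays 2 and 3 only. The calls without it follow in part from that choice and are no separate evidence of a difference. Without GF array 1, 8 of the 30 maturation genes were called, 26.7% of the list against 0.188% of members, and all 8 were lower in GF. They were Il12b (-2.48 ± 0.28, adjusted p 0.00307), Socs2 (-1.65 ± 0.25, 0.0155), Cd274 (-1.53 ± 0.28, 0.0464), Ccr7 (-1.48 ± 0.25, 0.033), Ccl5 (-1.24 ± 0.20, 0.0213), Anxa3 (-1.17 ± 0.17, 0.011), Nudt17 (-1.17 ± 0.20, 0.033) and Samsn1 (-1.11 ± 0.16, 0.0106), by limma. Cd63, a tetraspanin of lysosomes and exosomes chosen here after its values were seen, had the largest such difference (-2.83 ± 0.36). It read 9.22, 9.09 and 9.84 in CTRL and 9.57, 6.57 and 6.55 in GF. Without GF arrays 2 and 3 the median of the maturation list was 0.10, Il12b differed by 0.04 ± 0.36 and Ccr7 by 0.11 ± 0.31. The direction of the maturation genes therefore rested on GF arrays 2 and 3.

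Costimulatory and coinhibitory ligands and genes of NF-kB shared parts of this pattern. Of 20 costimulatory and coinhibitory genes, 0 were called and 1 (Cd274) was lower at an unadjusted p under 0.05, with a median of -0.18. Icosl, the ligand of ICOS, read 8.64, 8.58 and 8.59 in CTRL and 8.54, 7.66 and 8.02 in GF (-0.53 ± 0.27), with no overlap. Cd86, the main ligand of CD28 and CTLA-4 on DC, differed by only -0.17 ± 0.11, and Cd40 by -0.20 ± 0.16. Of 22 subunits and targets of NF-kB, the transcription factor family downstream of innate receptors, 0 were called and 18 had a difference below 0, with a median of -0.22. Over members at or above the median level the median was -0.02. The list stood 0.13 above the CTRL mean in GF array 1 and 0.52 and 0.35 below it in GF arrays 2 and 3. Birc2, an inhibitor of apoptosis protein in this pathway, read 6.91, 7.17 and 7.32 in CTRL and 7.21, 6.68 and 5.87 in GF (-0.55 ± 0.25), and Rel differed by -0.46 ± 0.26.

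Genes induced by type I interferon were split by array in the same direction, but by less than the maturation genes. Of 54 members, 0 were called, 3 were higher and 1 lower at an unadjusted p under 0.05, and the median was -0.09. A difference below 0 was found in 34 of the 54 (63.0%, against 39.6% of members). By array the list stood 0.10 above the CTRL mean in GF array 1 and 0.22 and 0.11 below it in GF arrays 2 and 3, and without GF arrays 2 and 3 the median was 0.10. The CTRL arrays themselves stood at -0.085, 0.045 and 0.039, so GF array 3 lay only just below CTRL array 1. The interval lay within a 2-fold difference in 44 of the 54. Ifitm3, which restricts virus entry, was the largest higher difference: it read 9.03, 9.60 and 9.27 in CTRL and 9.98, 10.18 and 9.87 in GF (0.71 ± 0.27), with no overlap. Mx1, an antiviral GTPase, read 6.79, 7.67 and 7.76 in CTRL and 6.95, 5.52 and 5.88 in GF, and its difference of -1.29 ± 0.66 had an interval from -2.69 to 0.12. Eif2ak2, which encodes the RNA-sensing kinase PKR, was likewise lowest on GF arrays 2 and 3 (-0.87 ± 0.45). Mx2 read 4.59, 6.32 and 6.46 in CTRL and 5.97, 3.77 and 4.71 in GF (-0.97 ± 0.69), so its groups overlapped.

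The interferon receptors, kinases and STAT genes included 0 called genes and 0 at an unadjusted p under 0.05 among 22 members, with a median of -0.05. Stat2, which carries the type I signal to the nucleus, read 8.88, 9.24 and 9.29 in CTRL and 8.71, 8.34 and 8.39 in GF (-0.66 ± 0.34). Its groups did not overlap. Among 13 genes induced by interferon gamma the median was -0.09, with 2 lower at an unadjusted p under 0.05: Irf1 (-0.77 ± 0.25) and the guanylate-binding protein gene Gbp5 (-0.57 ± 0.25). Irf1 read 7.66, 7.33 and 7.59 in CTRL and 7.50, 6.68 and 6.09 in GF, and GF array 1 again lay within the CTRL range.

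The receptors through which DC detect microbes were measured for their own expression. Of 12 Toll-like receptor genes and their partners, 0 were called and the median was -0.01. Tlr4, the receptor for lipopolysaccharide, was the only one at an unadjusted p under 0.05: it read 4.22, 4.11 and 4.23 in CTRL and 4.41, 5.31 and 4.55 in GF (0.57 ± 0.18, limma adjusted p 0.766). Ly96, which encodes its co-receptor MD-2, read 7.04, 7.18 and 6.71 in CTRL and 6.95, 7.86 and 7.93 in GF (0.61 ± 0.46), so its groups overlapped. Tlr12, a profilin receptor of mouse DC, differed by 0.31 ± 0.22, and Tlr3, the double-stranded RNA receptor typical of XCR1+ DC, by 0.19 ± 0.22.

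Among 30 other sensors and adaptors 0 were called, 1 was higher and 3 lower at an unadjusted p under 0.05, and the median was -0.06. Nlrp1b, an inflammasome sensor, read 5.52, 7.33 and 6.89 in CTRL and 5.62, 4.27 and 4.47 in GF (-1.80 ± 0.53, limma adjusted p 0.766). The CTRL arrays themselves differed by more than 1.8 on this gene, and GF array 1 lay just above the lowest of them. Naip5, a sensor of bacterial flagellin, read 6.38, 7.40 and 7.05 in CTRL and 6.54, 5.75 and 5.86 in GF (-0.90 ± 0.30). Card9, the adaptor of fungal lectin receptors, read 5.56, 5.63 and 5.68 in CTRL and 4.96, 4.77 and 5.40 in GF (-0.58 ± 0.25), with no overlap. Aim2, a sensor of cytosolic DNA, differed by -0.55 ± 0.34.

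Receptors for metabolites and nutrients, such as those for short-chain fatty acids, aryl hydrocarbons, bile acids and vitamins, had intervals within a 2-fold difference in 28 of 29 genes. The median was 0.02, 3 were higher at an unadjusted p under 0.05 and 0 lower. Sucnr1, the succinate receptor, read 3.89, 4.01 and 3.86 in CTRL and 4.25, 3.84 and 4.77 in GF (0.37 ± 0.17), and Gpr183, an oxysterol receptor that positions DC, differed by 0.45 ± 0.38. The GF and CTRL arrays overlapped in both genes.

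Antigen presentation genes were close to equal in the 2 housings. All 14 measured members of the MHC class II pathway and all 15 of the class I pathway had intervals within a 2-fold difference, with medians of 0.03 and -0.05. In neither list did a gene reach an unadjusted p under 0.05. Ciita, the transactivator of class II genes, had the largest class II difference (-0.43 ± 0.21): it read 9.19, 9.07 and 9.09 in CTRL and 9.03, 8.65 and 8.39 in GF. Tapbp, which loads peptides onto class I, had the largest class I difference (0.43 ± 0.26).

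Immature XCR1+ DC divide, and genes of mitosis again set GF arrays 2 and 3 apart. Of 24 genes of G2/M and mitosis 0 were called and 3 were lower at an unadjusted p under 0.05, with a median of -0.13. By array the list stood 0.25 above the CTRL mean in GF array 1 and 0.38 and 0.37 below it in GF arrays 2 and 3. The kinesin gene Cenpe read 7.77, 7.97 and 7.87 in CTRL and 8.04, 4.79 and 5.31 in GF (-1.82 ± 0.84). Mki67, the proliferation marker Ki-67, read 9.16, 9.04 and 9.35 in CTRL and 9.16, 6.59 and 7.02 in GF (-1.59 ± 0.71), and Cenpf, a kinetochore protein, differed by -1.59 ± 0.62. The immature Ifnar1-KO array 2, which had the lowest limma array weight of all arrays (0.323), was low in the same genes. Mki67 read 9.24, 6.90 and 9.23 and Cenpe 7.82, 4.22 and 7.79 on the 3 arrays of that group. Birc5, the chromosomal passenger protein survivin, differed by only -0.03 ± 0.18. Of 24 genes of DNA replication and G1/S, 1 was higher and 2 lower at an unadjusted p under 0.05, with a median of -0.02. E2f8, a repressor of cell cycle genes, read 8.10, 8.11 and 8.12 in CTRL and 7.96, 7.15 and 6.87 in GF (-0.78 ± 0.28), with no overlap.

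Genes of oxidative phosphorylation lay slightly above the CTRL level. Of 24 members 0 were called and 1 was higher at an unadjusted p under 0.05. A difference above 0 was found in 23, against 11591 of all 19187 members. The median was 0.15, against 0.03 over all members and 0.08 in the shortest-span group of members at or above the median level. The part of gene span in this list was not tested. By array the list stood at 0.01, 0.29 and 0.18 above the CTRL mean. Ndufb9, a subunit of complex I, read 9.89, 9.90 and 9.92 in CTRL and 10.06, 10.23 and 10.48 in GF (0.35 ± 0.13), with no overlap. Without GF arrays 2 and 3 the median of the list was 0.01.

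The remaining lists covered stress, metabolism and daily rhythm. Across all 38 lists, which held 668 different members, 0 genes were called and 52 (7.8%) reached an unadjusted p under 0.05, against 6.31% of all members. Gclc, which makes the first product of glutathione synthesis, read 8.87, 8.60 and 9.21 in CTRL and 8.86, 6.59 and 7.18 in GF (-1.35 ± 0.40), while the median over 20 antioxidant genes was 0.08. Ciart, a repressor in the circadian clock, read 3.87, 5.19 and 4.69 in CTRL and 3.66, 3.49 and 3.44 in GF (-1.05 ± 0.27), while the median over 17 clock genes was 0.00. Hsph1, a chaperone of the heat shock response, read 8.99, 9.36 and 9.42 in CTRL and 8.44, 8.60 and 8.89 in GF (-0.61 ± 0.19). In Ciart and Hsph1 all GF arrays, array 1 included, lay below the CTRL arrays. Fasn, the fatty acid synthase, differed by -0.57 ± 0.21 and the unfolded protein response sensor Ern1 by -0.41 ± 0.14, both without overlap.

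**Figure D4:**
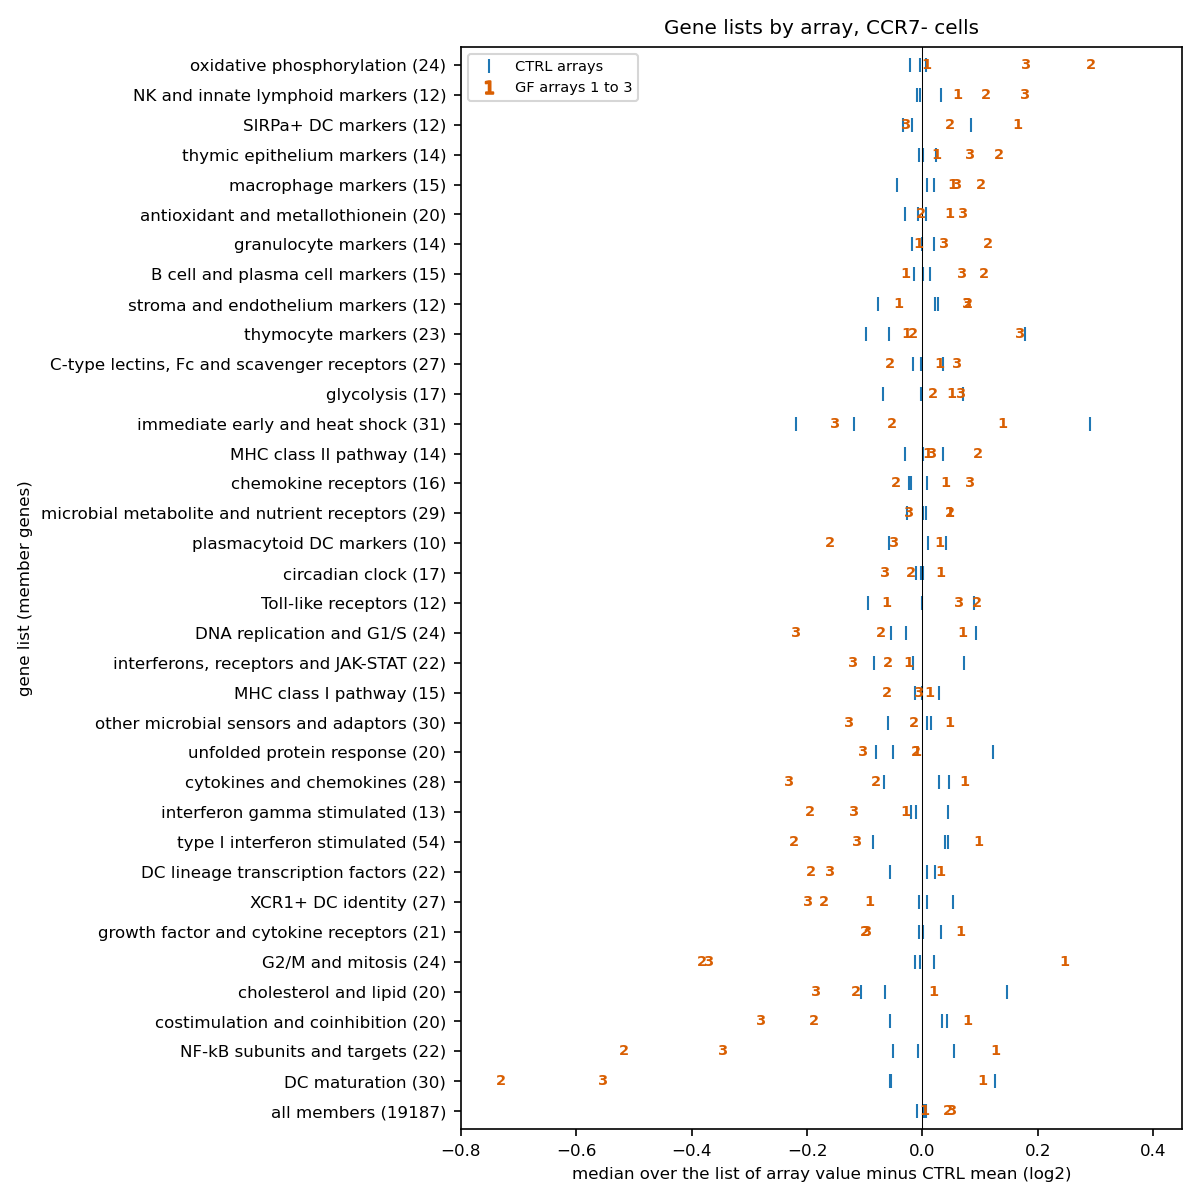
Each row is a gene list with its number of members, and the horizontal axis gives the median over the list of each array's log2 value minus the CTRL mean (blue bars for CTRL arrays, orange digits for GF arrays 1 to 3). For DC maturation (-0.73 and -0.55), NF-kB and mitosis, GF arrays 2 and 3 lie below 0 and GF array 1 above it.

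The same comparison in mature cells was used to ask whether the housing difference depended on stage. In CCR7+ cells limma called 6 of 19938 genes (0.0301%), of which 3 were among the 19187 members (0.0156%). At an unadjusted p under 0.05 there were 1119 members (5.83%), 561 higher (2.92%) and 558 lower (2.91%). All GF arrays lay above all CTRL arrays in 1113 members (5.80%) and below them in 1075 (5.60%). The called genes were Birc5 (1.30 ± 0.18), Naf1, a ribonucleoprotein assembly factor (1.38 ± 0.20), and Atxn10 (0.63 ± 0.09). In immature cells Birc5 and Atxn10 differed by -0.03 ± 0.18 and 0.03 ± 0.09, and Naf1 by 0.72 ± 0.20. These 3 calls were lost when only the groups compared were fitted. The maturation list had a median of -0.05 in mature cells, where Il12b differed by -0.30 and Ccr7 by 0.01. Mature GF arrays 2 and 3 lay below mature CTRL in some genes. Mki67 read 6.91, 5.65 and 5.65 in mature GF against 6.81 to 7.16 in CTRL, and Mx1 7.65, 6.31 and 6.99 against 7.36 to 8.05. Cenpe read 3.95, 3.95 and 4.03 in mature GF against 3.98 to 4.20.

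The difference between stages was tested directly. Limma called 0 of 19187 members (smallest adjusted p 0.999), and 633 (3.30%) had an unadjusted p under 0.05, with the immature difference higher than the mature one in 382 (1.99%) and lower in 251 (1.31%). The 5 genes of smallest p were Tmem231, Birc5, Atxn10, Zbtb11os1 and Chaf1b. Tmem231 differed by 0.75 ± 0.11 in immature and -0.10 ± 0.11 in mature cells, and Zbtb11os1 by 0.82 ± 0.18 and -0.33 ± 0.18. Immature minus mature was -1.34 ± 0.71 for Il12b and -0.96 ± 0.50 for Ccr7, neither past the threshold. Across members the differences at the 2 stages, which share no array, correlated at 0.41 (Pearson, over genes, which are not independent replicates). Same-numbered arrays of the 2 stages may come from 1 preparation, which the labels do not state. Both comparisons set arrays with GF's sex-linked pattern against arrays with CTRL's.

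**Figure D5:**
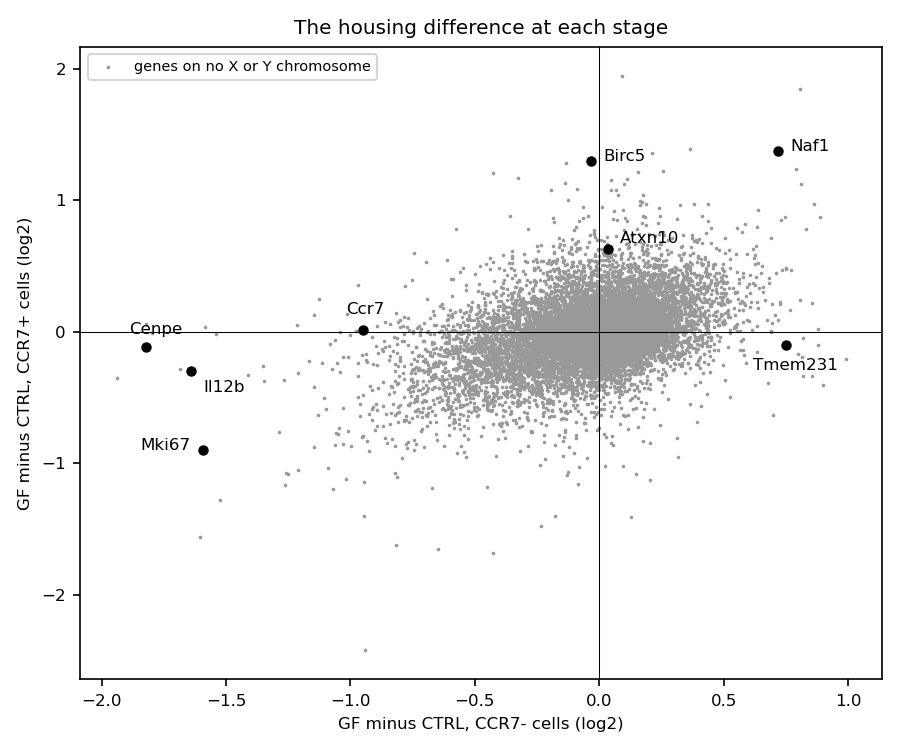
Each point is a member, with GF minus CTRL in CCR7- cells on the horizontal axis and in CCR7+ cells on the vertical axis (log2), and a few genes described in the text marked in black. Il12b, Ccr7 and Cenpe lie far to the left but near 0 on the vertical axis, and Birc5 lies near 0 on the horizontal axis at 1.30 on the vertical one.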

How the data were processed

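RNA of sorted thymic XCR1+ DC was hybridised to 18 Affymetrix MoGene 1.0 ST arrays, 3 in each of 6 groups. Amplification used NuGEN's Ovation Pico kit from as little as 0.7 ng and at most 7.3 ng, per the labels' protocols. The deposited values are log2 levels from RMA in oligo, per the submitters' processing notes (version not given in the sources used here). No source states that the 18 arrays were normalised as 1 set. Of 35556 probesets, 21789 had 1 gene symbol, 1621 several and 12146 none; those with 1 symbol covered 19938 genes, each read from its probeset of highest mean over all arrays. The number of arrays and the uneven GF arrays limit the precision.

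The main fit was limma 3.58.1 in R 4.3.3 with 1 mean per group over all 18 arrays, Benjamini-Hochberg adjustment over all 19938 genes and two-sided tests, and was tested on simulated data. 17 genes with no matched chromosome stayed among the members. The members and gene lists were chosen with earlier results of these data known. Genes named are the 10 of smallest p per direction, the sort genes, Il12b and Ccr7, up to 4 per list by largest difference, and the 5 of smallest p for the stage difference; Cd63, Cd86, Cd83, Cd40, Ccl17, Naf1, Samsn1, Nudt17, Irf8, Batf3, Id2 and Tlr3 were added after their values were seen. Gene spans come from the RefSeq gene table. Alternatives changed the variance prior, array weights, centring, quantile normalization, probeset choice, low-level filter, arrays fitted, a replicate block, and a covariate for a trailing letter r in the array code, which 6 GF, 2 CTRL and 4 Ifnar1-KO arrays carry. A replicate block over both stages was added after seeing the data. In the replicate 2 CTRL pair the array codes name the opposite stage to the labels, and the labels were used. Sequences were not used.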

Additional observations from a re-analysis of the deposited data

Results flagged for a closer look

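Genes on Y lie outside the members but carried a signal in germ-free immature cells above the level in control cells. Eif2s3y was higher by 4.58 and Kdm5d by 2.22 (log2, GF minus CTRL), and in both genes all 3 GF arrays lay above all 3 CTRL arrays. Sex and housing cannot be told apart in these groups.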

How the results depend on the processing

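Against 0 members called in CCR7- cells, limma called 1 with an intensity trend and 1 with only the 12 wild-type arrays (Tmem231 in both), and 3 with array weights and 3 without both Ifnar1-KO replicate 2 arrays (Tmem231, Klra5 and Cacna1e in both). Leaving out each array in turn gave 0 to 36 calls: 36 without GF array 1, 1 without GF array 2 (Bex6, 0.98) and 1 without CTRL array 2 (Nnt, chosen after its values were seen). Against 1211 members at an unadjusted p under 0.05 there were 2949 with array weights, 670 among genes at or above the median level, 792 with the trailing r as covariate, 1932 without both Ifnar1-KO replicate 2 arrays, 256 without GF arrays 2 and 3, and 561 to 2683 leaving out each array in turn. Against 3 calls in CCR7+ cells there were 0 with only the groups compared, 0 with the r covariate, 7 without both Ifnar1-KO replicate 2 arrays and 0 to 9 leaving out each array in turn; against 1119 members at an unadjusted p under 0.05 there were 653 among genes at or above the median level, 707 with the r covariate and 772 to 1712 leaving out each array in turn. The stage difference had 0 calls under every alternative run, and against 633 members at an unadjusted p under 0.05 there were 1060 with array weights, 248 among genes at or above the median level, 292 without GF arrays 2 and 3, and 423 to 1271 leaving out each array in turn. Same-numbered arrays of the 2 housings did not deviate together (correlations -0.013, -0.0017 and 0.022). These are deviations from means of only 3 arrays, so they do not settle whether the numbers pair the 2 housings. With a replicate block 0 members were called in CCR7- cells, 1342 had an unadjusted p under 0.05, and 2 were called in CCR7+ cells. Across stages, same-numbered arrays correlated at 0.18, 0.14 and 0.10 in CTRL and 0.28, 0.32 and 0.23 in Ifnar1-KO. In GF these values were 0.27, 0.0011 and 0.031. Immature GF array 2 correlated with mature GF array 3 at 0.20, and immature GF array 3 with mature GF array 2 at 0.095. Mature GF array 1 correlated with immature GF arrays 2 and 3 at -0.20 and -0.11. Whether GF arrays share preparations across stages was not tested. With a random replicate block over both stages, chosen after seeing the data, there were 0 calls in CCR7- cells (1256 at an unadjusted p under 0.05), 3 in CCR7+ cells and 0 for the stage difference (899). With that block as fixed terms the stage difference had 0 calls (873).

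Without GF arrays 2 and 3, which leaves a single GF array assumed to vary like the other groups, the sign turned for Birc5 (0.26), Atxn10 (-0.0072), Chaf1b (0.034), Ccr7 (0.11), Kit (0.12), Itgam (-0.037), Il12b (0.039), Socs2 (0.060), Fscn1 (0.10), Cd274 (0.03), Mx2 (0.18), Gbp5 (0.027), Ly96 (-0.025), Birc2 (0.077), Ccl22 (0.48), Ccl5 (0.37), Cenpe (0.17), Cenpf (0.076), Tapbp (-0.015), C1qa (-0.040), Batf3 (0.086), Cd40 (0.16), Cd83 (0.21), Cd63 (0.19), Irf8 (-0.059) and Samsn1 (0.22). The sign of small differences also turned for H2-Aa (-0.0012 centred on array medians, -0.0103 with quantile normalization), Birc5 (9e-04 with quantile normalization), Batf3 (0.033 with quantile normalization, 0.092 with the r covariate), Ccl17 (-0.20 with the r covariate) and Id2 (-0.012 with quantile normalization). Leaving out each array in turn, differences ran from -0.18 to 0.17 for Birc5, -0.0021 to 0.095 for Atxn10, -0.29 to 0.020 for Kit, -0.0067 to 0.10 for Itgam, -0.016 to 0.031 for H2-Aa, -0.28 to 0.088 for Sirpa, -0.34 to 0.36 for Ccl17, -0.22 to 0.092 for Cd83 and -0.084 to 0.053 for Batf3. The causes of these changes were not tested. Of the values of single genes under alternatives, 1805 kept their direction and their side of the threshold.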
